A study of Mus musculus with 2 samples.

Results

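Transcripts of 8 neuropeptide genes, Pdyn, Penk, Cck, Gast, Npy, Gal, Ucn3 and Vgf, were described in the beta and delta cells of mouse pancreatic islets, with alpha, endothelial and macrophage cells beside them. The 8 genes were selected on their measured levels and ratios between these libraries, and are found by name among the 28692 genes of the count tables, so their levels and ratios are descriptions and not findings of a search. The data are droplet single-cell RNA profiles of 2 libraries, 1 of flox/flox islets and 1 of islets labelled BcBKO. In droplet profiling an RNA is tagged at its 3′ end, once for its cell and once for the molecule, and a molecule's tag (UMI) counts it 1 time whatever the length of the transcript. The series title names BAF60C, a chromatin-remodelling subunit encoded by Smarcd3, and its design text describes BcBKO as an ablation restricted to beta cells, in mice carrying Pdx1-cre. The promoter of Pdx1, a transcription factor, is active in adult beta cells and in the embryonic pancreas, from which the other endocrine cells also arise. The exons that were deleted, and the age and strain of the mice, are not given in the sources used here.

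Each library was made from islets pooled from at least 3 mice and dispersed with TrypLE, a trypsin substitute. With 1 library per group there is no replicate error and no test between groups. The intervals below are exact 95% intervals for counting error only, and differences between mice or preparations cannot be told apart from differences between genotypes. Intervals of UMI counts and their ratios treat each UMI as independent. They are too narrow where a gene's UMIs cluster in some cells, as those of Pdyn, Cck and Npy did in beta cells. Smarcd3 itself had 45 UMIs in flox/flox beta cells (0.374 CPM, the gene's UMIs scaled to 1000000 UMIs of the class) and 71 in beta cells of the library labelled BcBKO (0.610 CPM). It was thus not lower in the second library, and tags at the 3′ end check nothing if the deleted exons lie elsewhere; that library is called by its label throughout.

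Beta cells, set by an insulin share of 25% or more of UMIs, numbered 2750 for flox/flox and 3058 in the library labelled BcBKO, with medians of 38461.5 and 33171.5 UMIs per cell. Delta cells, set by a somatostatin share of 5% or more, numbered 281 and 371, with medians of 10335 and 8842 UMIs. All 8 beta markers were detected in beta cells of both libraries, and 4 of 5 delta markers in delta cells, where Nkx1-2 was at 0. The delta class was not free of other hormones: 204 of 281 and 253 of 371 cells had 1% or more of their UMIs from Ppy, and 29 and 61 from Gcg. The alpha, delta, endothelial and macrophage classes could overlap, and 38 of 281 and 63 of 371 delta cells also met the rule of another class. The libraries shared 23 cell barcodes.

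Neuropeptides are cut from longer precursors inside secretory granules and released with a cell's main hormone. In islets they act over short distances, on receptors of neighbouring endocrine, vascular and immune cells. Pdyn encodes the precursor of dynorphins, ligands of the kappa opioid receptor, and Penk that of enkephalins. Cck and Gast encode the related gut hormones cholecystokinin and gastrin. Npy and Gal encode neuropeptide Y and galanin, which restrain insulin secretion. Ucn3 encodes urocortin 3, a marker of mature mouse beta cells that acts on delta cells through the receptor Crhr2, and Vgf encodes a granule protein from which several active peptides are cut.

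The genes lie apart in the mouse genome (mm10, GENCODE M21 annotation, all protein-coding). Pdyn spans chr2:129686565-129699844 and Ucn3 chr13:3940688-3945349. Cck spans chr9:121489824-121495694 and Npy chr6:49822710-49829507. Vgf spans chr5:137026392-137033351 and Gast chr11:100334407-100336996. Penk spans chr4:4133531-4138819, where it overlaps A830012C17Rik on the other strand, and Gal spans chr19:3409915-3414544.

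The bases before the transcription start are shown for the 3 members with the widest gap between libraries in beta cells that have an entry, Pdyn, Cck and Npy, and for Ucn3, the most abundant member in beta cells. Each sequence holds the 250 bases before a RefSeq start (GRCm38.p6), read 5′ to 3′ on the gene's strand: chr2:129699939-129700188 for Pdyn (minus strand), chr9:121495695-121495944 for Cck (minus), chr6:49822460-49822709 for Npy (plus) and chr13:3945350-3945599 for Ucn3 (minus). Capitals mark the cAMP response element half-site, TGACG or its complement CGTCA.
Pdyn: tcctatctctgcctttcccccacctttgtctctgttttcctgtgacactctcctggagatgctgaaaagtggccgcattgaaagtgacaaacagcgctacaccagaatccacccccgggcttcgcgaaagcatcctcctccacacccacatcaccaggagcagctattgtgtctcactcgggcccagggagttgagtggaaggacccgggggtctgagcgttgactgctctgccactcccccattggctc
Cck: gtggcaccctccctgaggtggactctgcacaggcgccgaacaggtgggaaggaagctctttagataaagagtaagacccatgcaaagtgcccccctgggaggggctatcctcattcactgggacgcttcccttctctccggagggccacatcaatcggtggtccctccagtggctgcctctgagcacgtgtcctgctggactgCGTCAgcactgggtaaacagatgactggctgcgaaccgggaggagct
Npy: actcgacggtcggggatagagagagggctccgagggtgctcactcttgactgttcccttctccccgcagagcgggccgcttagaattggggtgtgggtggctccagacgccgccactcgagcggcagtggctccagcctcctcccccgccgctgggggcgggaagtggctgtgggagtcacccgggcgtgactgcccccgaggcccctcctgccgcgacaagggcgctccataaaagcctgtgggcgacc
Ucn3: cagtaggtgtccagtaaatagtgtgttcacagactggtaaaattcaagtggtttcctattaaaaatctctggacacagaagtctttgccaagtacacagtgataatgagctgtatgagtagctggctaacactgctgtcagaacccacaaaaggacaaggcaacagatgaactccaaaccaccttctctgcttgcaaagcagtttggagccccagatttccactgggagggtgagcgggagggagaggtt

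The search covered both strands for the full cAMP response element TGACGTCA, which contains the half-site, the half-site TGACG, the AP-1 motif TGANTCA, the E-box CANNTG and the TATA motif TATAAA. Only the Cck window among the 4 held a half-site, 47 bases before the start, and 17.8% of 32851 such windows of all genes held one. E-boxes numbered 3 for Cck and 2 for Ucn3, with 66.2% of all windows holding at least 1, and none lay in the Pdyn and Npy windows. Outside the 4 windows shown, Gast had a TATA motif on the opposite strand, 28 bases before its start, as 12.4% of all windows had on either strand. No window of the 6 members matched held TGACGTCA (1.55% of all windows) or TGANTCA (6.75%). A match or its lack describes these letters only.

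Pdyn was the member with the widest gap among those well detected in beta cells. It had 4459 UMIs in flox/flox beta cells, 37.1 CPM (36.0 to 38.2), and 10420 UMIs in beta cells of the library labelled BcBKO, 89.5 CPM (87.8 to 91.2). The dynorphin precursor was thus 2.41 times as high in the library labelled BcBKO (2.33 to 2.50), a log2 ratio of 1.25 on the scale of CPM plus 1. Ucn3, at 243 CPM (240 to 246) and 252 CPM (250 to 255), had a log2 ratio of 0.06, which lay between -0.02 and 0.09 under the other settings tried; the median over all genes at 20 CPM or more in either library was 0.06. Of these 2 members at 20 CPM, 1 was past a log2 ratio of 0.5; 0.953% of the 2938 genes at that level were past it in the same direction. The library labelled BcBKO was the higher one for 28 of those genes and the lower one for 12 (0.408%).

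The 4 members from 1 CPM to under 20 CPM, Vgf, Cck, Npy and Gast, were all past a log2 ratio of 0.5 with the library labelled BcBKO higher, as were 1.47% of the 8321 genes in that range. Since the members were chosen with these ratios known, nothing is read from that count. Vgf had 6.95 CPM (835 UMIs) in flox/flox beta cells and 12.3 CPM (1433 UMIs) in the other library, a ratio of 1.77 (1.63 to 1.93). Cck had 0.383 CPM (46 UMIs) and 3.35 CPM (390 UMIs), a ratio of 8.75 (6.44 to 12.2). Npy had 0.150 CPM (18 UMIs) and 2.97 CPM (346 UMIs), a ratio of 19.8 (12.4 to 33.9). Gast, the gastrin gene, had 0.641 CPM (77 UMIs) and 1.39 CPM (162 UMIs), a ratio of 2.17 (1.65 to 2.89). The enkephalin and galanin genes were near 0 in beta cells of both libraries. Penk had 11 and 9 UMIs, and Gal had 3 and 5.

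**Figure D1:**
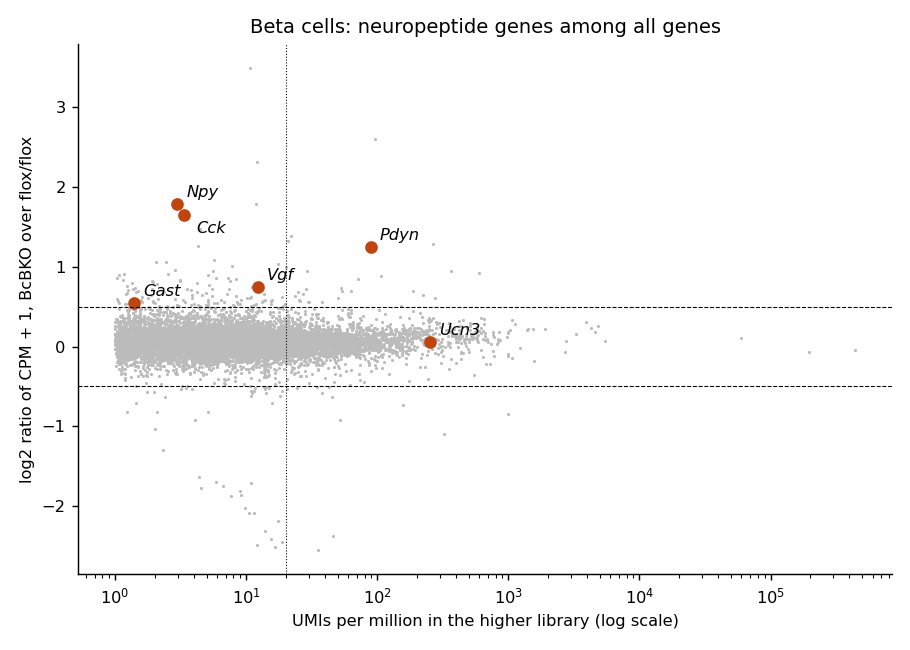
Each grey point is a gene at 1 CPM or more in beta cells of either library, placed by its CPM in the higher library (log scale) and by the log2 ratio of CPM plus 1 of the library labelled BcBKO over flox/flox. Orange points are the 6 neuropeptide genes at that level, dashed lines mark log2 ratios of 0.5 and -0.5 and the dotted line marks 20 CPM; Pdyn lies at 1.25 and Ucn3 at 0.06.

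The gap in Pdyn was seen both in the number of beta cells with a UMI and in the UMIs per cell. As deposited, 41.2% of flox/flox beta cells had a Pdyn UMI, against 57.1% in the library labelled BcBKO, although the beta cells of the second library were the shallower ones. With every beta cell thinned to 10000 UMIs, the shares were 18.1% (16.7 to 19.6) and 34.9% (33.2 to 36.6). Positive cells then held 1.87 and 2.42 Pdyn UMIs on average. Cells with 5 or more made up 1.42% and 3.83% of beta cells. At the same depth Ucn3 was found in 86.4% and 87.2% of beta cells, Vgf in 6.51% and 10.4%, Gast in 0.727% and 1.24%, Cck in 0.218% and 1.31%, and Npy in 0.0727% and 0.719%.

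**Figure D2:**
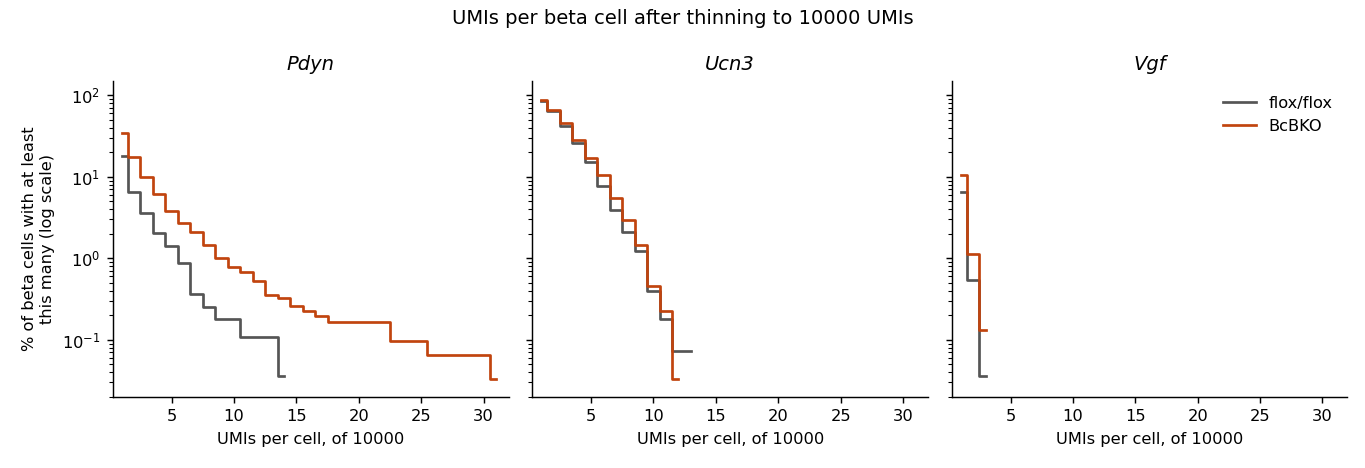
For Pdyn, Ucn3 and Vgf, each line gives the percentage of beta cells (log scale) with at least the number of UMIs on the horizontal axis, after each cell was thinned to 10000 UMIs, in grey for flox/flox and in orange for the library labelled BcBKO. The Pdyn lines lie apart and reach 14 and 31 UMIs, while the Ucn3 lines nearly coincide and end at 13 and 12.

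Pdyn and Ucn3 were spread over beta cells in different ways. The 10% of beta cells with the most Pdyn UMIs held 65.4% of all Pdyn UMIs for flox/flox and 57.2% in the library labelled BcBKO. The 10% with the most Ucn3 held 23.4% and 24.1% of Ucn3. The variance of UMIs per cell over their mean was 11.01 and 17.6 for Pdyn and 4.16 and 4.26 for Ucn3. Urocortin 3 transcripts were thus found in nearly all beta cells (98.9% and 98.5% as deposited), and prodynorphin transcripts in 41.2% and 57.1%. The genes differ in level, with 1.62 and 3.41 Pdyn UMIs per beta cell against 10.6 and 9.61 of Ucn3. For Vgf, a gene of lower level, the richest 10% held 62.9% and 56.5%, near the shares of Pdyn. Its variance over mean was 1.78 and 1.77. The share of the richest 10% alone thus does not show that Pdyn was concentrated in few cells. Without the 10% of cells with the most Pdyn, the log2 ratio of Pdyn between libraries was 1.53. At the level of single cells, the richest flox/flox cell had 81 Pdyn UMIs and the richest of the other library 206.

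Cck and Npy were found in few beta cells. Cck UMIs lay in 14 flox/flox beta cells, 2 of them with 10 or more, and in 85 beta cells of the library labelled BcBKO, 12 of them with 10 or more and the richest with 49. Npy UMIs lay in 10 flox/flox beta cells, the richest with 8, and in 30 cells of the library labelled BcBKO. There, 1 cell held 161 of the 346 Npy UMIs (46.5%), and the next had 28. Without the richest cell of each library Npy had 0.0833 CPM and 1.59 CPM in beta cells. No beta cell of either library held UMIs of both Cck and Npy, where the product of their shares gave 0.0509 and 0.834 cells. The 40 Cck-positive beta cells of the library labelled BcBKO, taken after thinning, had a median insulin share of 59.0%, against 62.5% in the others.

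Members were then compared within the same beta cells, thinned to 10000 UMIs and each library on its own. In the library labelled BcBKO, 25 cells held both Pdyn and Cck, where the product of the shares gave 14.0, a ratio of 1.79 (1.16 to 2.64). Of Cck-positive cells there, 62.5% held Pdyn, against 34.6% of the rest. In the flox/flox library only 6 cells held Cck, 3 of them with Pdyn. Pdyn and Vgf were found together in 43 cells against 32.4 in the flox/flox library (ratio 1.33, 0.962 to 1.79) and in 117 against 111 in the other (1.05, 0.869 to 1.26), both intervals including 1. Counting only cells with at least 2 UMIs of each gene, the flox/flox ratio of this pair was 3.09 (0.637 to 9.03), from 3 cells. Pdyn and Ucn3 met as often as the product of their shares, with ratios of 0.980 (0.889 to 1.08) and 0.990 (0.927 to 1.06). Pdyn-positive cells had more UMIs in all before thinning, with medians of 43157 against 37796 and 37857 against 31388. Their share of mitochondrial UMIs was lower, at 2.07% against 2.31% and 2.42% against 2.71%. The part of cell size or quality in these figures was not tested.

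Genes that accompany Pdyn in beta cells were chosen for flox/flox and then read in the library labelled BcBKO, which the choice had not used. Pappa2, a secreted protease of insulin-like growth factor binding proteins, had 74.9 CPM in the 275 thinned flox/flox cells with the most Pdyn and 33.1 CPM in the other 2475, a ratio of 2.26 (1.93 to 2.64). In the library labelled BcBKO it had 138 CPM in the 306 cells with the most Pdyn and 57.1 CPM in the others, a ratio of 2.41 (2.16 to 2.69), the second highest of 2644 genes. Sdf2l1, a chaperone cofactor of the endoplasmic reticulum, had ratios of 1.55 (1.42 to 1.70) and 1.57 (1.45 to 1.70), rank 8 in the second library. Fkbp11, a prolyl isomerase of the same compartment, had ratios of 1.55 (1.39 to 1.72) and 1.5 (1.38 to 1.63), rank 14. The 3 genes chosen in flox/flox were thus higher in Pdyn-rich cells of the second library too, and over all 2644 genes the log2 ratios of the 2 libraries had a Pearson r of 0.37, which is across genes and not a replicate check.

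For the other members fewer of the chosen genes had a ratio above 1 in the second library as well. Over all genes the r between libraries was 0.32 for Ucn3, near the 0.37 of Pdyn, 0.03 for Vgf and 0.04 for Gast. For Ucn3, Gad1, which makes the transmitter GABA, had ratios of 1.55 (1.31 to 1.83) and 1.39 (1.15 to 1.66), rank 24. D5Ertd579e had 1.58 in flox/flox and 1.13 (0.904 to 1.41) in the other library. Cd74, the invariant chain of MHC class II, had opposite ratios in the libraries, 1.56 (1.29 to 1.87) in flox/flox and 0.347 (0.262 to 0.451) in the other. For Vgf, the genes chosen were Ank2, Ina and Dusp18, with ratios of 1.56, 1.54 and 1.52 that were 1.06, 0.676 and 0.962 in the second library. For Gast, with 20 positive flox/flox cells, Zfp652 had ratios of 3.22 and 2.14 (1.30 to 3.33), while Ctsz and Plvap had 0.765 and 0.551 in the second library, with intervals that include 1. Cck and Npy had too few positive flox/flox cells for this reading.

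In delta cells the picture for Pdyn was another one. It had 140 UMIs in flox/flox delta cells, 40.3 CPM (33.9 to 47.6), and 171 UMIs in delta cells of the library labelled BcBKO, 39.8 CPM (34.1 to 46.2), a ratio of 0.988 (0.785 to 1.24). This interval does not overlap that of beta cells, 2.33 to 2.50. The difference between the classes could not be tested over mice. Pdyn was also higher in the library labelled BcBKO in alpha (7.39 and 14.2 CPM), endothelial (3.15 and 9.53) and macrophage cells (4.90 and 26.8). The part of free RNA in those gaps, and of barcodes that met several class rules, was not tested. Delta cells with a Pdyn UMI made up 24.9% and 24.0% as deposited, and 16.9% and 14.6% when thinned to 5000 UMIs, which left out the shallower cells and kept 266 and 355. The 10% of delta cells with the most Pdyn held 70.0% and 69.6% of its UMIs. For Ucn3, whose UMIs per delta cell were near those of endothelial and macrophage cells, the share was 68.2% and 82.7%. This share alone thus does not set apart delta cells rich in Pdyn. In the 70 and 101 delta cells with under 1% of both Gcg and Ppy, a split chosen after the values were seen, Pdyn had 67.3 and 54.8 CPM, from 50 and 51 UMIs.

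No member reached 50 CPM in delta cells, the minimum set for this smaller class, so the count of members past a log2 ratio of 0.5 was 0 of 0; among the 2617 genes at that level 1.72% were past it in either direction. Of the 5 members from 1 CPM to under 50 CPM, only Npy was past it, with the library labelled BcBKO higher, as were 9.98% of 10545 genes in that range. Npy had 2 UMIs in 1 flox/flox delta cell and 33 UMIs in 7 delta cells of the library labelled BcBKO, the richest with 9. The values were 0.576 CPM (0.0697 to 2.08) and 7.68 CPM (5.29 to 10.8). Vgf had 12 and 13 UMIs in delta cells, 3.45 and 3.03 CPM, and Gast had 7 and 11 UMIs, 2.01 and 2.56 CPM. Of the 7 Gast UMIs 4 lay in 1 flox/flox cell, and without it Gast had 0.879 CPM. Cck had 0 UMIs in flox/flox delta cells, which allows up to 0.864 CPM, and 1 in the other library. Penk had 2 and 0 UMIs and Gal had 1 and 0. The genes chosen with Pdyn in flox/flox delta cells, Abca1, Churc1 and Upb1, had ratios of 2.14, 2.10 and 2.10 that were 1.09, 1.08 and 0.940 in the second library, each with an interval that includes 1.

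Droplets also take up free RNA of broken cells, and the member UMIs per cell in 2156 and 1818 endothelial and macrophage cells were taken as its level. Against it, Pdyn in beta cells was 67.2 times higher (51.2 to 90.2) in the flox/flox library and 55.8 times (46.3 to 67.9) in the library labelled BcBKO. In delta cells Pdyn was 20.7 times (14.9 to 29.0) and 7.55 times (5.91 to 9.67) above it, and in alpha cells 4.70 and 3.03 times. The background cells met no other class rule. Of delta cells, 38 and 63 met another, and of alpha cells 38 and 78. Of the Pdyn UMIs of alpha cells, 14 of 47 lay in 1 flox/flox barcode and 19 of 132 in 1 barcode of the other library. The part of such barcodes in these ratios was not tested. The background itself was not equal, with 0.0241 Pdyn UMIs per cell in flox/flox and 0.0611 in the library labelled BcBKO. There were 0.179 and 0.451 Pdyn UMIs for each Ucn3 UMI in the background, and 0.153 and 0.354 in beta cells. Delta cells had 3.18 and 3.29 Pdyn UMIs for each Ucn3 UMI. The source of the background Pdyn, and the part of free RNA in delta cells, was not tested. With the background subtracted per cell, the log2 ratio of Pdyn was 1.24 in beta cells and -0.15 in delta cells.

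Ucn3 in delta cells lay at the background, 1.16 times (0.825 to 1.60) and 1.04 times (0.753 to 1.40) it, and in alpha cells at 1.29 and 1.21 times with intervals that include 1. As deposited, 14.9% and 12.4% of delta cells had a Ucn3 UMI, against 12.3% and 12.1% of the shallower endothelial cells. The medians of the endothelial cells were 5623 and 5387 UMIs. In the delta cells low in Gcg and Ppy, Ucn3 had 6.73 and 18.3 CPM, from 5 and 17 UMIs. The part of free RNA in these values was not tested. Vgf was above the background in beta cells (38.5 and 38.7 times), in alpha cells (22.9 and 17.7 times) and in delta cells (5.42 and 2.90 times). Its delta values rest on 12 and 13 UMIs, and in the delta cells low in Gcg and Ppy it had 4 and 2 UMIs. Gast had 0 UMIs in the flox/flox background cells, where beta cells had 77, alpha cells 15 and delta cells 7. With 4 background UMIs in the library labelled BcBKO, Gast was 24.1 times above it in beta cells (9.22 to 89.4), 17.2 times in alpha cells (5.99 to 67.6) and 13.5 times in delta cells (3.99 to 58.0). For Penk these cells give no background level, since endothelial cells held 28 and 17 Penk UMIs, up to 4 and 5 in a cell; beta cells had 0.308 and 0.268 times as many per cell. Gal could not be told from the background (0.588 and 0.743 times). Beta cells had 1.18 times (0.536 to 2.68) as many Npy UMIs per cell as these cells in flox/flox, and 51.4 times (19.9 to 190) in the library labelled BcBKO. For Npy these cells are an unsure background level. In flox/flox, 1 endothelial cell held 4 of 6 Npy UMIs, and 1 macrophage held 4 of 6. The value of 51.4 rests on 4 background UMIs, and 161 of 346 beta UMIs lay in 1 cell. Beta cells had 1.80 times (1.05 to 3.22) and 4.46 times (3.33 to 6.08) as many Cck UMIs per cell as the endothelial and macrophage cells. For Cck too these cells are an unsure background level. Endothelial cells had 1.39 and 4.81 CPM of Cck, against 0.383 and 3.35 in beta cells. In the library labelled BcBKO, 34 of 50 endothelial Cck UMIs came from 1 cell. Alpha and delta cells there lay below that level, at 0.196 (0.0514 to 0.532) and 0.0942 times (0.00234 to 0.549).

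**Figure D3:**
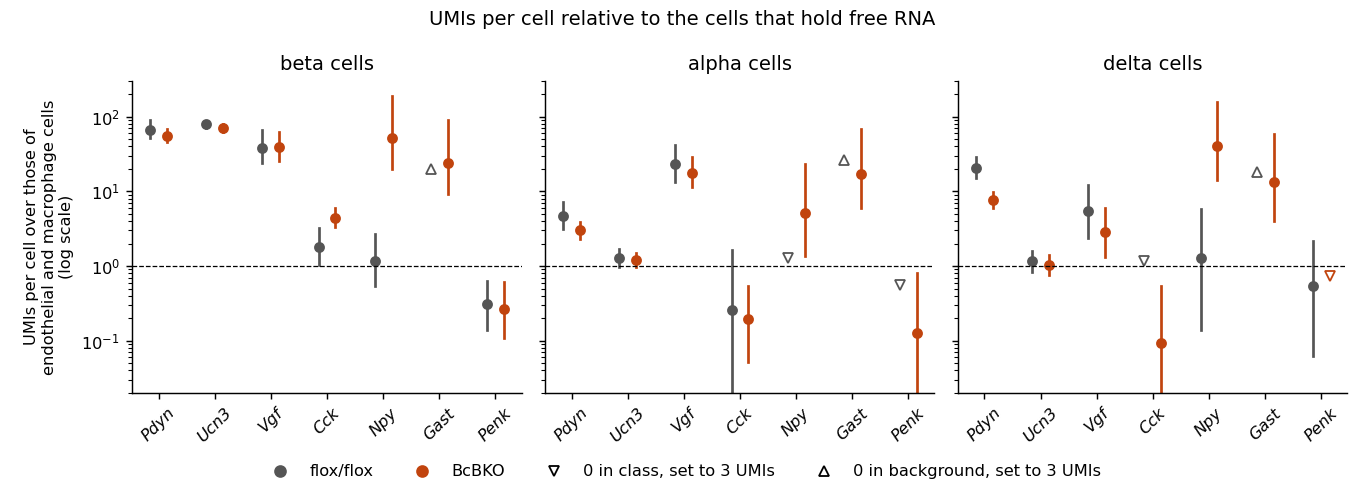
Points give a ratio of mean UMIs per cell (log scale), with exact 95% intervals, for each member but Gal. Beta, alpha or delta cells are divided by endothelial and macrophage cells of the same library that met no other class rule. Grey marks flox/flox and orange the library labelled BcBKO. The dashed line marks equality, and open triangles are placed with 3 UMIs in place of a count of 0. The Pdyn intervals lie above the line in all 3 classes, those of Ucn3 only in beta cells, and those of Penk in none.

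Across the 5 classes the order of the levels depended on the scale, since most UMIs of beta cells come from insulin, which lowers the CPM of their other genes. Ucn3 was highest in beta cells and lay between 11.3 and 22.5 CPM in the other 4 classes of both libraries. Pdyn in the flox/flox library was highest in delta and beta cells, whose intervals overlap (40.3 and 37.1 CPM), followed by alpha cells at 7.39 CPM (5.43 to 9.82), then macrophages at 4.90 and endothelial cells at 3.15 CPM. Per cell, beta cells held more Pdyn than delta cells, 1.62 UMIs against 0.498 in flox/flox and 3.41 against 0.461 in the other library. In the library labelled BcBKO the order was beta (89.5 CPM), delta (39.8), macrophage (26.8), alpha (14.2) and endothelial (9.53). Of 62 macrophage UMIs 19 lay in 1 cell, and 34 of 367 macrophages also met another class rule. Endothelial and macrophage barcodes that met no other rule held 111 Pdyn UMIs together, against 99 and 62 in the whole classes. The place of macrophages in this order is thus unsure. Vgf had a higher CPM in alpha than in beta cells in both libraries, at 11.8 CPM (9.27 to 14.8) against 6.95 (6.48 to 7.44) and at 16.4 CPM (13.9 to 19.3) against 12.3 (11.7 to 13.0). Per cell the order of Vgf was the reverse, with 0.304 UMIs in beta and 0.181 in alpha cells of flox/flox and 0.469 and 0.214 in the other library. Gast likewise had a higher CPM in alpha cells, at 2.36 CPM (1.32 to 3.89) against 0.641 in beta cells and at 2.90 CPM (1.91 to 4.22) against 1.39; per cell it had 0.0280 UMIs in beta and 0.0361 in alpha cells of flox/flox, and 0.0530 and 0.0378 in the other library. With cells thinned to 2000 UMIs, leaving out 5 and 2 shallower delta cells, 5 and 13 alpha cells and 0 beta cells, 5.75% and 11.8% of beta cells, 7.25% and 6.78% of delta cells and 1.22% and 2.00% of alpha cells held Pdyn.

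**Figure D4:**
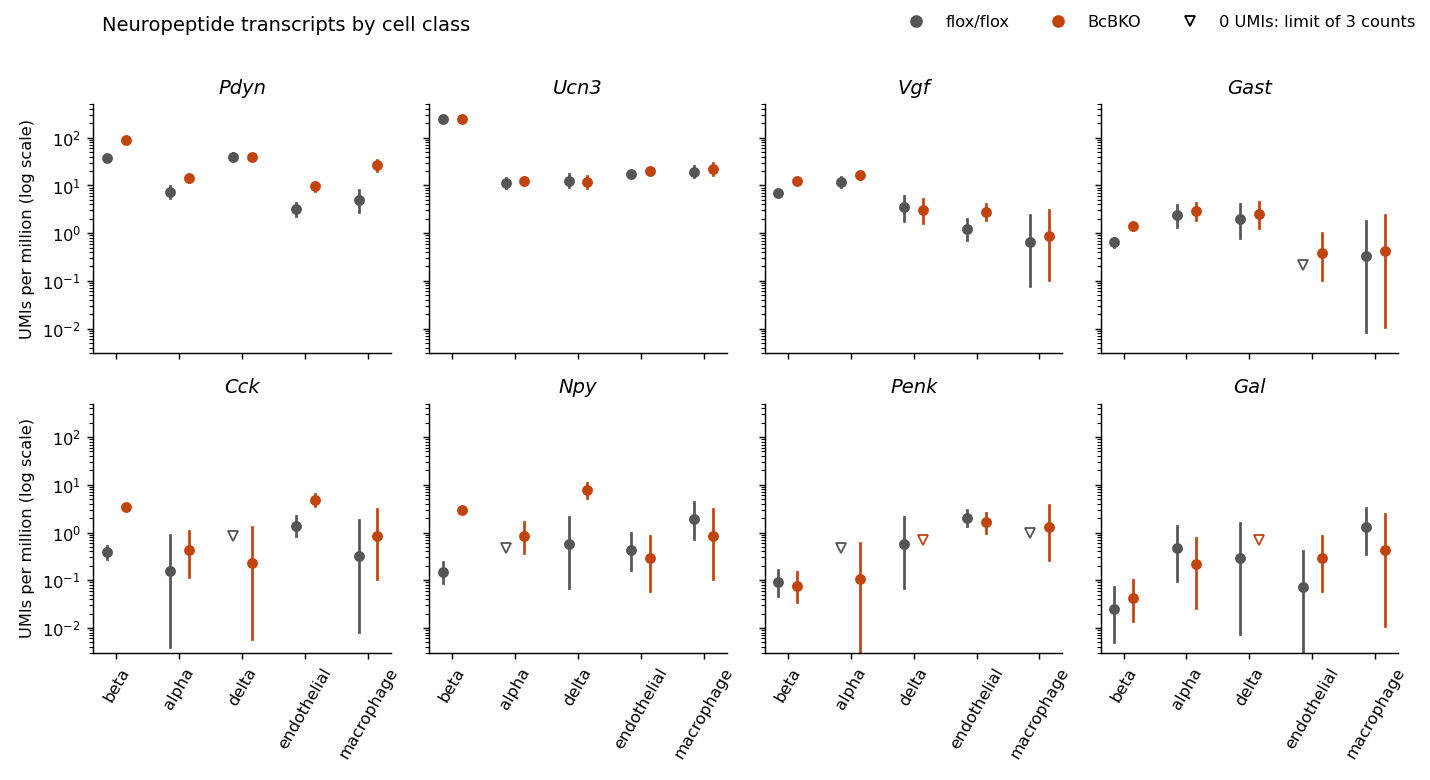
Each panel gives a member's CPM (log scale) in 5 cell classes, in grey for flox/flox and in orange for the library labelled BcBKO, with exact 95% Poisson intervals; open triangles are the limit of 3 counts where no UMI was found. Pdyn is high in beta and delta cells, and its intervals lie apart between libraries in every class but delta. Ucn3 stands out in beta cells, and Vgf has its highest CPM, though not its most UMIs per cell, in alpha cells.

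The genes whose levels were most like a member's over the 10 points of 5 classes and 2 libraries were named as a description; the points share libraries, depth and free RNA. For Ucn3 they were Tmem215, Prss53 and Slc2a2, the glucose transporter of mouse beta cells, each with a Pearson r of 0.99. For Pdyn they were Sec11c, a signal peptidase subunit, Fkbp11 and Pdx1, with r from 0.90 to 0.92. For Vgf they were Ddc, an enzyme of amine synthesis, C1galt1 and Cadps, with r from 0.90 to 0.95. Gast, Cck, Npy, Penk and Gal stayed below 10 CPM in each class, and their nearest genes are not read.

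Receptors of these peptides were looked up in the same classes. Galr1, a galanin receptor, was highest in beta cells, at 11.6 and 12.6 CPM, and had 1.73 and 1.40 CPM in delta cells. Crhr2, the receptor of urocortin 3, was highest in delta cells, at 6.33 and 5.12 CPM from 22 UMIs in each library, against 0.0250 and 0.0687 CPM in beta cells. Npy1r, a neuropeptide Y receptor, was highest in endothelial cells, at 15.1 and 9.53 CPM. C3ar1, a receptor of a Vgf peptide, was highest in macrophages, at 172 and 159 CPM. The opioid receptors Oprk1 and Oprd1, the gastrin receptor Cckbr and the receptors Npy2r and Npy5r had 0 UMIs in beta and in delta cells of both libraries, and Cckar had 2 and 3 UMIs in beta cells. Of 22 receptor and binding genes in the tables, 2 reached 20 CPM in beta cells, the somatostatin receptor Sstr3 and C1qbp, and neither was past a log2 ratio of 0.5. Crhbp, which encodes the binding protein of corticotropin-releasing hormone, was below that minimum and lower in the library labelled BcBKO, at 0.965 and 0.344 CPM (116 and 40 UMIs).

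Genes that cut and finish peptide precursors differed less than Pdyn between the libraries in beta cells. Of 14 such genes 9 reached 20 CPM, none was past a log2 ratio of 0.5 in either direction, where 1.36% of all genes at that level were, and their median was 0.20. Pam, which amidates peptides, had the widest gap, at 158 and 211 CPM (log2 ratio 0.42). Pcsk1, a prohormone convertase, had 87.5 and 109 CPM (0.31), and Pcsk2 had 1325 and 1548 CPM (0.23). Of 38 other peptide and granin genes 6 reached the minimum and 1 was past the fold, Pyy, which encodes peptide YY, at 188 and 365 CPM (0.95). Cartpt, the precursor of CART peptides, lay below the minimum at 2.71 and 11.8 CPM, 4.37 times as high in the library labelled BcBKO (3.87 to 4.94); it was named after its values were seen. The granins Chga, Chgb, Scg2 and Scg3 had log2 ratios of -0.07, 0.33, 0.07 and 0.16. Of 15 genes of activity-dependent transcription 8 reached the minimum and none was past the fold; Npas4, an early gene of depolarised cells, was nearest at 61.5 and 43.6 CPM (-0.49). In delta cells none of the genes at 50 CPM in these 4 lists was past the fold.

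Markers of other cells in the beta class also differed between the libraries, and their part in the members' ratios was not tested. The 8 acinar markers, all detected, summed to 165 CPM in flox/flox beta cells and to 25.5 CPM in the library labelled BcBKO. The 8 Schwann-cell and neuron markers summed to 51.8 CPM (none at 0) and to 44.5 CPM (Sox10 at 0). The single marker of pancreatic polypeptide cells, Ppy, was higher in the library labelled BcBKO, at 274 CPM against 179, and the 5 delta markers summed to 117 and 291 CPM, with Nkx1-2 at 0. The 6 alpha markers summed to 1562 and 2035 CPM and the 6 macrophage markers to 44.7 and 67.8 CPM, none at 0. In the stricter beta class, with Gcg, Sst and Ppy each under 0.1% of UMIs, the log2 ratio was 1.23 for Pdyn and 1.32 for Cck.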

How the data were processed

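Single-cell 3′ RNA libraries (10x kit v3) of islets of 2 groups, flox/flox and BcBKO, 1 library each, were read from the deposited UMI counts per gene and barcode. Per the submitters' processing notes the authors used Cell Ranger 3.1.0, Seurat 4.0.0 and mm10; the header of the deposited count matrices names Cell Ranger 6.1.2, and which version made the counts was not settled. The gene annotation is not given in the sources used here. The tables held 9438 and 10775 barcodes with 167670996 and 178647270 UMIs. Barcodes with at least 500 genes and 1000 UMIs and at most 20% mitochondrial UMIs were kept, 7568 and 8504.

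Beta cells had 25% or more of UMIs from Ins1 and Ins2, 10000 or more UMIs and under 1% each of Gcg, Sst and Ppy. With insulin under 15%, alpha cells had 10% or more Gcg, delta cells 5% or more Sst, endothelial cells 3 or more UMIs of Plvap and Cdh5, and macrophages 5 or more of C1qa and C1qb. Counts were summed per class and scaled to 1000000 UMIs of the class (CPM). Ratios carry exact conditional intervals, CPM exact Poisson and shares exact Clopper-Pearson intervals, all at 95%. A gene was counted as past the fold at a log2 ratio of 0.5 or more in size, on CPM plus 1, with 20 CPM (beta) or 50 CPM (other classes) in either library. Scrublet (scanpy 1.11.5, assumed rate 8%) marked 2.25% and 2.08% of barcodes as doublets, which were kept and removed as an alternative. TMM factors came from edgeR 4.0.16 in R 4.3.3; no count model was fitted. Intervals came from scipy 1.17.1 in Python 3.11.15, with pandas 2.3.3 and numpy 2.4.6 for the tables. The procedure was tested on simulated data: in beta cells 100% of 100 genes planted at a 2-fold change were past the fold, and 0 of 2588 unchanged genes. In delta cells 100% of 100 were, and 1 of 2274 unchanged genes. The simulated libraries were both drawn around the flox/flox levels with counting error only. They hold no differences between mice, preparations or cells, so these counts check the code and give no rate of false calls.

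The members, lists and thresholds were chosen with earlier results of these data known. Named genes are the 8 members, genes of the lists past the fold at the minimum level, the receptor with the highest CPM per peptide and class, the 3 genes highest in member-rich flox/flox cells and the 3 genes most like each member over classes. The other list genes named, among them Pam, Pcsk1, Pcsk2, the granins, Npas4, Crhbp and Cartpt, were named after their values were seen.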

Additional observations from a re-analysis of the deposited data

Results flagged for a closer look

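Penk was found outside the 5 classes. In barcodes with 10 or more UMIs of Col1a1, Col3a1 and Dcn, genes of fibroblasts that were chosen after the values were seen, Penk had 525 CPM (430 to 635) in the library labelled BcBKO, from 106 UMIs in 16 of 45 barcodes, the richest with 18. The flox/flox library had 92.1 CPM (49.1 to 158) from 13 UMIs in 6 of 27 such barcodes. The other barcodes outside the classes had 0.451 and 0.344 CPM.

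Barcodes removed by the cell filter also held members. Pdyn had 53.3 CPM (45.1 to 62.5) in the 2271 removed barcodes of the library labelled BcBKO, from 150 UMIs in 137 barcodes, against 17.6 CPM (12.6 to 23.8) and 41 UMIs in the 1870 of flox/flox. Npy had 19.2 CPM (14.4 to 25.02) in the removed barcodes of the library labelled BcBKO, from 54 UMIs in 24 barcodes. One barcode held 19 of these, with 9644 UMIs in all and 32.3% of them mitochondrial. The flox/flox library had 2.14 CPM (0.695 to 4.996) of Npy there, from 5 UMIs.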

How the results depend on the processing

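No paired analysis was possible because each group has 1 library. The count of members past the fold in beta cells was 1, and became 2 with totals that leave out hormones and mitochondrial genes and 5 with no minimum level; it was 1 under the other settings run. In delta cells it was 0, and became 2 with no minimum level (Npy higher and Penk lower in the library labelled BcBKO), and 0 under the others. Over 14 alternatives the log2 ratio in beta cells ranged from 1.17 to 1.53 for Pdyn and from 0.53 to 0.86 for Vgf. That of Cck ranged from 0.00 to 2.84, of Npy from 0.00 to 3.62 and of Gast from 0.00 to 1.01; the value of 0.00 arose where the richest 10% of cells were left out, which removes every cell with a UMI of these genes. Gast was past 0.5 under 11 of 14. Over 15 alternatives in delta cells Pdyn ranged from -0.29 to 0.09, Ucn3 from -0.95 to 1.32 and Vgf from -1.30 to 0.61. With at least 2 UMIs of each gene, the co-expression ratio in beta cells was 0.00 for Pdyn with Cck in flox/flox (2.77 with 1 UMI) and 2.52 in the library labelled BcBKO; without doublets it was 1.83 in the latter. The sets of barcodes of 1 class only, of delta cells low in Gcg and Ppy, and without the richest barcode were chosen after seeing the data. Depth limits Cck, Penk and Gal in delta cells, each at 2 UMIs or fewer.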
